A study of Mus musculus with 3 samples.

Results

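Among the cytosines called as 5-methylcytosine (m5C) in the mRNA of mouse germinal vesicle (GV) oocytes, metaphase II (MII) oocytes and 1-cell embryos, 2807 were called at every stage and had a level under 20% in the GV oocyte. These low sites lay in 1970 genes and made up 2807 of the 6145 sites called at every stage, and of the 40298 distinct sites in the 3 lists. They were chosen by their GV level, so that level, and any step that starts from it, is given below as a description without a test. The level is the share of reads with an unconverted C after bisulfite, which turns C but not m5C into a base read as T.

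All libraries came from C57BL/6J females aged 7 to 8 weeks that had received pregnant mare serum gonadotrophin, and the labels name no genetic change. GV oocytes, which are full grown and arrested before meiosis resumes, were taken 48 h after 10 IU of this hormone. MII oocytes, which have matured and await fertilization, were taken 12 h after 5 IU of human chorionic gonadotrophin that followed 10 IU of the first hormone. 1-cell embryos came from mated females and were taken 24 h after 5 IU of human chorionic gonadotrophin that followed 5 IU of the first hormone. Each stage had 1 library, so no difference between stages has a replicate check. The labels describe the bisulfite conversion of the oocytes and of the embryos differently, and conversion protocol and stage cannot be told apart for the embryo.

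The m5C of mRNA is placed mainly by the methyltransferase NSUN2, whose sites tend to be followed by G bases and to sit at the foot of a stem (Type I), and by NSUN6, which prefers the motif CUCCA (Type II). Fully grown oocytes are nearly silent in transcription and live on stored maternal mRNA, much of which is broken down during maturation and after fertilization. A site level is a share of the copies of an mRNA, so more methylated copies and fewer unmethylated copies cannot be told apart.

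Windows of 25 bases around the sites that the results below turn on were read from GRCm38, in the direction of the transcript. The site and the 4 bases after it are in capitals. The first set holds the 10 low sites with the largest rise between the MII oocyte and the embryo, among those with at least 100 reads at each stage and an adjusted p under 0.05. All of them were Type I, and 9 of the 10 had at least 2 G in the 4 bases after the site. Of the low sites with sequence 4.99% were Type II, and 20% of the Type I low sites had 0 or 1 G there. Both counts are thus near those of the low sites at large.
Daglb, chr5:143472990-143473014, plus strand: gctctatatccgCCTGGcgctcttc
Abt1, chr13:23422061-23422085, minus strand: ggcgggaaagagCACGGctggctaa
Sfpq, chr4:127022163-127022187, plus strand: ggggccccctccCGGCGgaccggga
Aff1, chr5:103834258-103834282, plus strand: gctctcgccgctCAGGGactcccca
Strap, chr6:137735318-137735342, plus strand: tcggtccccgctCCGCGtcaccgcg
Bspry, chr4:62482642-62482666, plus strand: aggctgcagttaCAGAGtgctggca
H1fx, chr6:87981283-87981307, minus strand: cggcccgcaagaCGGCCaaggccgg
Sun1, chr5:139241272-139241296, plus strand: tctgaggatcagCAGGGcggttccc
Taf8, chr17:47498613-47498637, minus strand: catctcagaaatCGGGAgaagtgct
Tmem209, chr6:30492697-30492721, minus strand: ggcgagtgttacCAGCTtgaagcaa

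The second set holds 3 of the 5 sites with the largest fall under the same conditions. The other two, in Tesc and Ampd3, lay too close to an exon end for an unbroken window.
Smurf1, chr5:144881650-144881674, minus strand: tgcagtttgtgaCAGGAtccacaag
Tmem63b, chr17:45679634-45679658, minus strand: cgcggccctcaaCAGCAgcaacccg
Afap1l2, chr19:56937278-56937302, minus strand: cgttccaaagatCGAGTcccctgag

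The third set holds 4 of the 5 sites that stayed lowest over all stages. The other one, in Slco3a1, had no unbroken window.
Slc23a2, chr2:132055512-132055536, minus strand: ctgggatggtaaCAGAGcgtcacca
Ccdc86, chr19:10948555-10948579, minus strand: gaggaggtgatcCCAGGatcccccg
Tet3, chr6:83455225-83455249, minus strand: gaaccctgtgagCCGGCtgcagagg
Ankrd13a, chr5:114804432-114804456, plus strand: cgtccagggctgCAGAGcagaggct

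The fourth set holds the 4 Type II sites with the most reads, which share the letters CTCCA in the DNA.
Lsm14b, chr2:180025224-180025248, plus strand: gatcagcctcatCTCCAaggcgcag
Ldhb, chr6:142490394-142490418, minus strand: tagaacacaaacCTCCAatgtgacc
Cd164l2, chr4:133221552-133221576, plus strand: agcccacaacttCTCCAtttgtgtc
Oas1c, chr5:120808033-120808057, minus strand: agaggagcccaaCTCCAggtctctg

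The low sites spread out towards higher levels from stage to stage. Their median level was 14.1% in the GV oocyte (quartiles 11.9% and 16.7%), 18.8% in the MII oocyte (15% and 23.5%) and 31.7% in the 1-cell embryo (21.7% and 45.1%). In the MII oocyte 1591 of the 2807 sites were still under 20%, and 3 had reached 50%. In the 1-cell embryo 558 were under 20% and 560 had reached 50%, of which 40 were at 100%. Of these 560 sites 357 had 20 to 49 reads in the 1-cell embryo. With at least 50 reads at each stage, 201 of 1881 sites (10.7%) reached 50%, and with at least 100 reads 63 of 1053 (5.98%) did, of which 0 were at 100%. The sites called at every stage with a GV level of 20% or more, 3338 in 2279 genes, had medians of 34.1%, 42.6% and 62.5% in the same order.

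**Figure D1:**
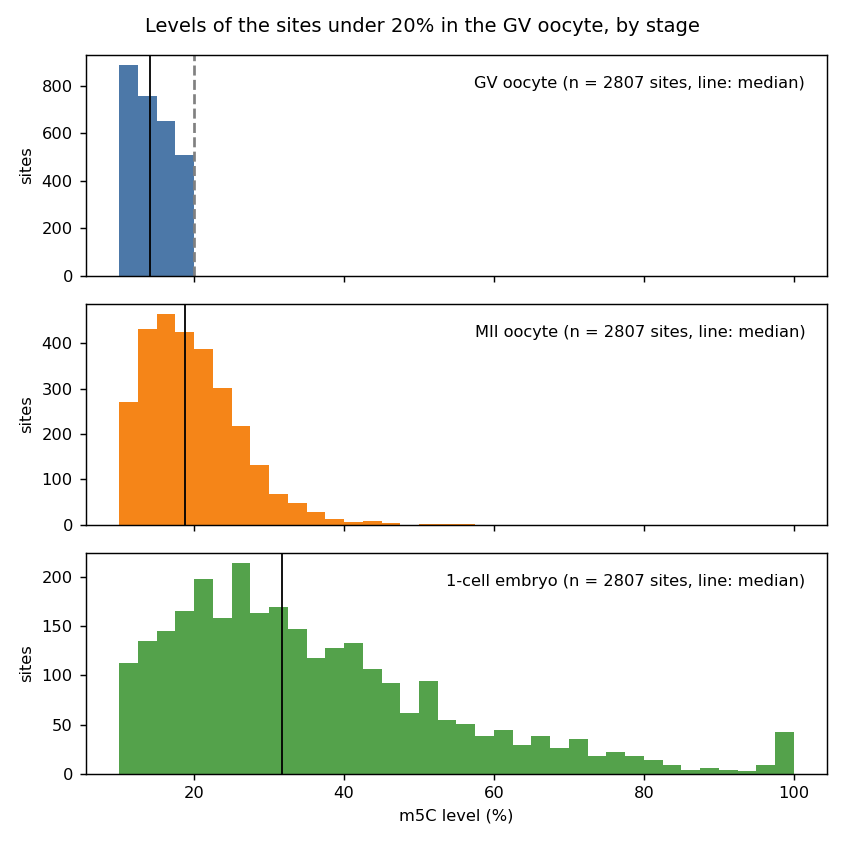
Number of low sites (y axis) by m5C level in percent (x axis) in GV oocytes, MII oocytes and 1-cell embryos, 2807 sites in each panel, with the median as a solid line and the 20% limit of the choice dashed. The medians are 14.1%, 18.8% and 31.7%, and the values of the 1-cell embryo reach from 10% to 100%.

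Depth differed between the stages. The median coverage of the low sites was 302 reads in the GV oocyte (quartiles 169 and 585.5), 264 in the MII oocyte (143 and 519) and 73 in the 1-cell embryo (41 and 148). A site had to have at least 20 reads, a level of at least 10% and at least 5 unconverted reads to be listed. At 20 reads the last condition asks for a level of 25%, and from 50 reads on it asks for no more than the level limit.

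The 1-cell level of the low sites moved with this depth. Its median was 41.5% at the 920 sites with 20 to 49 reads in the 1-cell embryo, 30.8% at the 830 sites with 50 to 99 reads, 27.3% at the 585 sites with 100 to 199 reads and 25.9% at the 472 sites with 200 or more. Over the same bins the GV median was 14.6%, 14.0%, 14.1% and 13.6%, and the MII median was 19.7%, 19.0%, 18.5% and 17.8%. The median difference between the 1-cell embryo and the MII oocyte was 21.3, 11.9, 8.79 and 7.89 percentage points. The 1-cell level was thus above the MII level in every bin, and the gap was smaller where more reads were counted. The part of the list conditions in this was not tested.

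**Figure D2:**
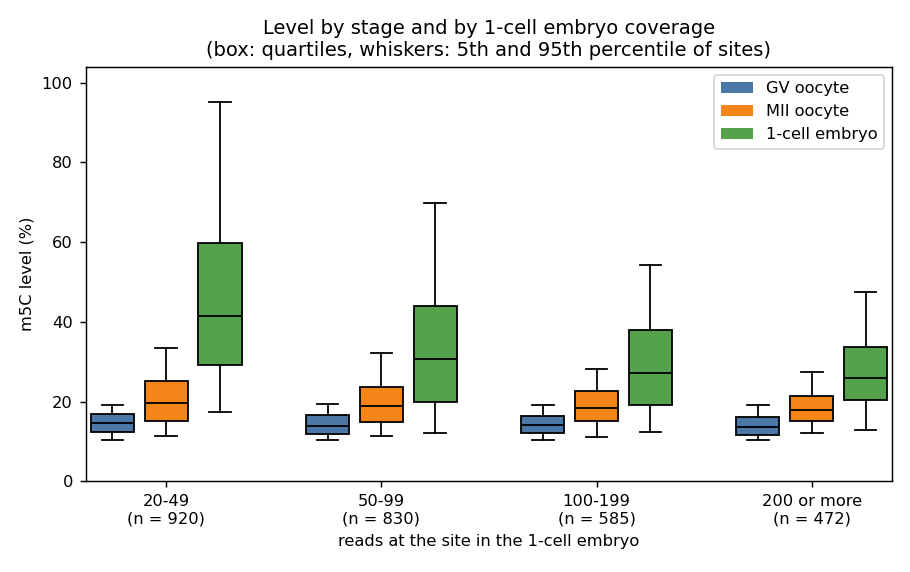
The m5C level in percent (y axis) of the low sites at each stage, for sites with 20 to 49, 50 to 99, 100 to 199 and 200 or more reads in the 1-cell embryo (x axis). Boxes are quartiles with the median and whiskers the 5th and 95th percentile of sites, and the 1-cell median falls from 41.5% to 25.9% across the bins while the oocyte medians stay within 13.6% to 14.6% and 17.8% to 19.7%.

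Being called at every stage was itself a condition. The GV oocyte list held 8137 sites under 20%, of which 6125 were also in the MII oocyte list, 3104 in the 1-cell embryo list and 2807, or 34.5%, in both. Of the 7773 GV sites at 20% or more, 42.9% were in both later lists. The median GV coverage was 302 reads at the low sites that were kept and 90 reads at those that were not in both lists. A low site that fell below the limits at a later stage is not among the 2807.

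Most low sites rose at both steps. The level was higher in the MII oocyte than in the GV oocyte and higher again in the 1-cell embryo at 2024 sites (72.1%). It rose and then fell at 421 sites (15%), fell and then rose at 340 sites (12.1%) and fell at both steps at 19 sites (0.677%). Among the sites of 20% or more in the GV oocyte, 63.5% rose at both steps and 2.79% fell at both. With at least 50 reads at each stage, 1324 of 1881 low sites (70.4%) rose at both steps, beside 68.4% of 1968 other sites. With at least 100 reads the shares were 73.8% and 73.9%. These counts use the direction of the level alone, and the first step starts from the value that chose the sites.

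A lasting low level was less common. Of the 2807 sites, 422 (15%) stayed under 20% at every stage, and with at least 100 reads at each stage 237 of 1053 (22.5%) did. In the other direction, 208 sites (7.41%) went from under 20% in the MII oocyte to 50% or more in the 1-cell embryo, of which 17 had at least 100 reads at each stage. A further 136 sites (4.85%) had reached 20% in the MII oocyte and were back under it in the 1-cell embryo.

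The levels of the MII oocyte and the embryo entered the choice through the list limits, since a site had to have at least 10% and 5 unconverted reads in both. A site under 20% in the MII oocyte could therefore rise freely but fall by less than 10 points, and the counts in each direction are bounded by this. The later step was tested site by site with the two-sided Fisher's exact test of the read counts in both libraries, with Benjamini-Hochberg adjustment over the 8015 sites in both lists. The test compares 2 libraries, not 2 conditions, and treats reads as independent. Of the 2807 low sites, 1445 (51.5%) were higher in the 1-cell embryo at an adjusted p under 0.05, where 51.3% of all 8015 sites were, and 42 (1.5%) were lower, where 2.45% of all sites were. The remaining 1320 passed in neither direction. The share of low sites that rose was thus near that of all sites tested. The median difference was 12.5 points at the low sites (quartiles 3.41 and 24.9), 12.7 points over all sites tested and 13.8 points at the sites of 20% or more, of which 51.6% were higher and 4.58% lower.

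At deeper sites the share of low sites that rose lay near that of all sites tested. It was below that of the sites of 20% or more. With at least 50 reads, 952 of 1881 low sites (50.6%) were higher and 40 (2.13%) lower, where 52.5% and 3.15% of all 5022 sites of this depth were. With at least 100 reads, 575 of 1053 (54.6%) were higher and 27 (2.56%) lower, where 56.6% and 3.1% of all 2707 sites were. Of the sites of 20% or more, 55.5% were higher and 5.95% lower with at least 50 reads. With at least 100 reads 59.2% of them were higher and 5.46% lower. The median difference at these depths was 9.17 and 8.24 points at the low sites, beside 12.3 and 11.0 points at the sites of 20% or more. When all reads were divided by 5 to stand for repeated copies of a molecule, the higher low sites numbered 228 and the lower ones 0. Every single fall below thus rests on reads being counted as independent. The share of all sites tested is not given at this setting, so these counts are not set against other sites.

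**Figure D3:**
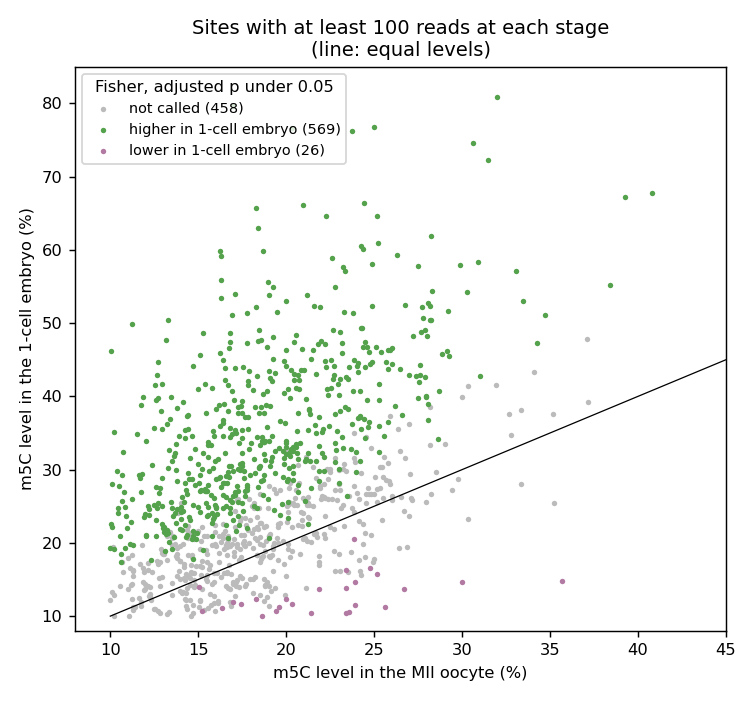
The m5C level in the 1-cell embryo (y axis, percent) against that in the MII oocyte (x axis, percent) for the 1053 low sites with at least 100 reads at each stage, with the line of equal levels. With p adjusted over all 8015 sites, 569 sites are higher in the 1-cell embryo (green), 26 are lower (purple) and 458 are in neither group (grey).

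The largest rise among the deeply covered sites was at chr5:143473002 in exon 3 of Daglb (ENSMUSG00000039206), in the coding sequence (CDS) of a diacylglycerol lipase. Its level was 12.8% of 514 reads in the GV oocyte (exact 95% interval 10.1% to 16.0%), 17% of 412 reads in the MII oocyte (13.5% to 21%) and 79.7% of 123 reads in the 1-cell embryo (71.5% to 86.4%). The last interval lay far above both others, with a difference of 62.7 points from the MII oocyte and an adjusted p of 3.74e-35 by Fisher's exact test. These intervals cover counting error only.

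The next rises likewise had their largest step between the MII oocyte and the embryo. Abt1, an activator of basal transcription, had 16.2% (160 reads), 20.4% (113 reads) and 76.6% (107 reads) at chr13:23422073 in the CDS. Sfpq, a splicing factor of paraspeckles, had 17.1% (744 reads), 23.7% (746 reads) and 76.2% (105 reads) at chr4:127022175 in the CDS of exon 1. Aff1, a part of transcription elongation complexes, had 13.5% (407 reads), 25% (352 reads) and 76.7% (129 reads) at chr5:103834270 in the CDS of exon 11. In all 3 the interval of the 1-cell embryo, which began at 66.9% or above, did not meet those of the oocytes. Strap, whose protein binds TGF-beta receptors, had 17.4% (619 reads), 32.0% (553 reads) and 80.9% (136 reads) at chr6:137735330 in the 5′ untranslated region (UTR) and was the one of the 10 sites outside the CDS.

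Of the remaining 5 sites with a large rise, 4 also rose at both steps. H1fx, a linker histone, had 16.0% (668 reads), 20.9% (678 reads) and 66.1% (124 reads) at chr6:87981295. Taf8, a subunit of the general transcription factor TFIID, had 19.6% (713 reads), 30.6% (549 reads) and 74.6% (130 reads) at chr17:47498625. Sun1, an inner nuclear membrane protein that links the nucleus to the cytoskeleton and takes part in meiosis, had 19.2% (333 reads), 18.4% (326 reads) and 63.0% (100 reads) at chr5:139241284, and was the exception with no higher value in the MII oocyte. Bspry and Tmem209 reached 65.7% of 102 reads and 59.8% of 127 reads in the 1-cell embryo from MII levels of 18.3% and 16.2%. Adjusted p over the 10 sites lay between 3.74e-35 and 4.78e-15, and all 10 stayed under 0.05 with reads divided by 5.

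**Figure D4:**
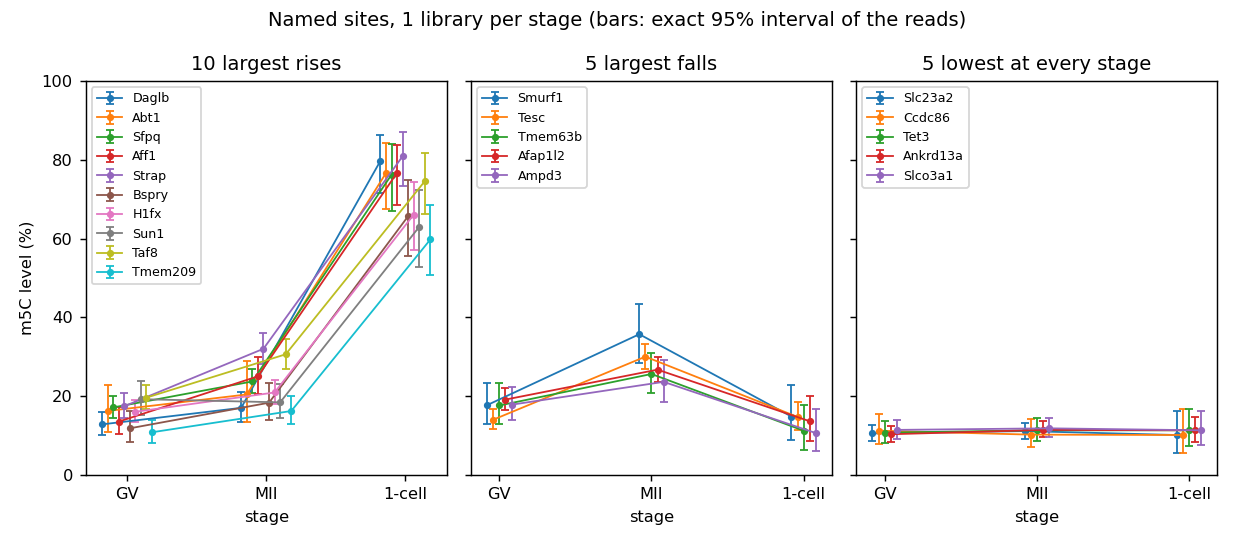
The m5C level in percent (y axis) at each stage (x axis) for the 10 largest rises, the 5 largest falls and the 5 sites lowest at every stage, with the exact 95% interval of the reads as bars and 1 library per stage. In the first panel the 1-cell values lie between 59.8% and 80.9%, and in the third all values lie between 10.1% and 11.8%. In the second the MII oocyte is highest, which the choice sets in advance.

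The 2 largest falls went back to about the GV level after a rise in the MII oocyte. Smurf1, a ubiquitin ligase of the TGF-beta pathway, had 17.7% of 215 reads (exact 95% interval 12.8% to 23.4%), 35.7% of 171 reads (28.5% to 43.3%) and 14.8% of 108 reads (8.71% to 22.9%) at chr5:144881662 in the CDS, a fall of 20.9 points from the MII oocyte with an adjusted p of 0.000403. Tesc, a calcium-binding protein, had 14.0% of 801 reads, 30.0% of 833 reads and 14.7% of 421 reads at chr5:118059451 in the CDS, with an adjusted p of 1.31e-08. In both genes the GV and 1-cell intervals overlapped, and the MII interval stood above them.

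The other three had smaller falls. Tmem63b, which encodes a mechanosensitive ion channel, had 17.6% (222 reads), 25.6% (289 reads) and 11.2% (134 reads) at chr17:45679646. Afap1l2, an adaptor protein of the actin cytoskeleton, had 19.1% (796 reads), 26.7% (787 reads) and 13.6% (154 reads) at chr19:56937290. Ampd3, an AMP deaminase, had 17.8% (349 reads), 23.6% (259 reads) and 10.6% (142 reads) at chr7:110788810. The 1-cell level minus the GV level was -6.37, -5.46 and -7.2 points at these sites, with overlapping intervals at each. Their adjusted p were 0.00154, 0.00136 and 0.00351, and with reads divided by 5 the p of the 5 falls lay between 0.0813 and 0.566.

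The sites that stayed lowest held nearly the same level throughout. Slc23a2, a vitamin C transporter, had 10.5% of 927 reads (8.57% to 12.6%), 11.1% of 949 reads (9.14% to 13.2%) and 10.1% of 139 reads (5.62% to 16.3%) at chr2:132055524 in the 3′ UTR. Ccdc86 had 11.2% (295 reads), 10.2% (304 reads) and 10.1% (129 reads) at chr19:10948567 in the CDS. Ankrd13a, a ubiquitin-binding protein, had 10.3% (864 reads), 11.4% (998 reads) and 11.3% (391 reads) at chr5:114804444 in the 3′ UTR. Slco3a1, an organic anion transporter, had 11.4% (711 reads), 11.8% (723 reads) and 11.3% (238 reads) at chr7:74327861 in the CDS. Their 3 intervals overlapped in each case. These sites lie at the 10% limit of the lists by the way they were picked, and any lower level could not have been listed.

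Some genes held several low sites. Of the 1970 genes, 1406 had 1 low site, 382 had 2 and 182 had 3 or more, and 978 also held a site of 20% or more that was called at every stage. Sites of 1 gene come from the same mRNA and are not independent, and 255 low sites lay within 100 bases of another low site.

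Caskin2, which encodes a scaffold protein related to a synaptic one, held the most, with 8 low sites among 9 sites called at every stage. The 8 ranged from 10.1% to 19.3% in the GV oocyte, from 12.7% to 31.8% in the MII oocyte and from 14.0% to 69.8% in the 1-cell embryo, where their coverage was 24 to 93 reads. Of the 8, 3 were called higher and none lower, beside 51.3% and 2.45% of all sites tested. The highest, at chr11:115804702 in exon 9, had 19.3% of 171 reads, 31.8% of 154 reads and 69.8% of 53 reads, while chr11:115807852 in exon 3 had 13.9% of 208 reads, 20.8% of 202 reads and 14.0% of 50 reads. Within the gene the spread in the 1-cell embryo was thus nearly that of the low sites as a whole between their 5th and 95th percentile, 13.1% and 73.3%.

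Tet3 encodes the dioxygenase that oxidizes 5-methylcytosine in the DNA of the zygote, and its mRNA held 7 low sites among 14 sites called at every stage. The site at chr6:83363887 in the 3′ UTR had 18.1% of 2304 reads, 23.8% of 2081 reads and 40.7% of 253 reads, with an adjusted p of 2.01e-07 for the last step. With reads divided by 5 its adjusted p by Fisher's exact test was 0.0957. The site at chr6:83375769 in the CDS had 12.1% of 2633 reads, 14.5% of 2109 reads and 12.2% of 394 reads, with an adjusted p of 0.326. The site at chr6:83455237 in the 5′ UTR, one of the 5 lowest, had 10.7% of 533 reads, 11.3% of 461 reads and 11.3% of 195 reads. Over the 7 sites the 1-cell levels ran from 11.3% to 40.7%. Of them 3 were called higher and none lower, beside 51.3% and 2.45% of all sites tested.

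Socs7, a suppressor of cytokine signalling, held 7 low sites, of which 6 lay in the CDS of exon 1. Within that exon chr11:97363006 went from 12.5% of 713 reads and 20.4% of 758 reads to 42.2% of 405 reads, while chr11:97363031, which lies close by, went from 12.0% of 766 reads and 16.4% of 799 reads to 20.6% of 378 reads. The adjusted p of the last step were 2.28e-13 and 0.138, and the exact test of the difference between the sites was not made. Gse1, a coiled-coil protein found with histone-modifying complexes, held 6 low sites, all in the CDS, with 1-cell levels from 16.7% to 64.2%. Of these, 4 were called higher and none lower, beside 51.3% and 2.45% of all sites tested.

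Neighbouring sites can be read on the same molecules. In 81 pairs a low site lay within 10 bases of a site of 20% or more. The median levels of the low sites in these pairs were 15.2%, 18.6% and 33.6%, and those of their neighbours were 31.3%, 39.4% and 52.2%, in the order of the stages. The low site was still the lower one in 77 of the 81 pairs in the MII oocyte and in 60 in the 1-cell embryo. Both sites of each pair had to pass the list limits at every stage, and this order was not tested.

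The 5 low sites with the most reads moved by 5.09 points or less in the last step. This did not hold for deep sites at large. The 472 low sites with 200 or more embryo reads had a median difference of 7.89 points. Of them 60.8% were called higher, beside 68.5% of the 406 other sites of that depth. Zbed3 encodes a zinc finger protein of the subcortical maternal complex, which oocytes and early embryos need for cleavage, and held the top 3 by reads, all in the CDS of exon 2. At the first, chr13:95336559, the level was 11.1% of 60941 reads, 19.0% of 74120 reads and 20.7% of 26806 reads. At the second, chr13:95336614, it was 15.1% of 55667 reads, 23.0% of 66327 reads and 28.1% of 22411 reads. At the third, chr13:95336337, it was 13.1% of 37606 reads, 21.2% of 45077 reads and 22.6% of 18019 reads. At each the step in the oocytes was larger, at 7.92, 7.96 and 8.19 points, than the step to the embryo, at 1.71, 5.09 and 1.39 points. With reads divided by 5 the second alone kept an adjusted p under 0.05, at 1.13e-08, beside 0.0755 and 0.33.

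The next by reads were in Gm47305 and Gm47287, annotated as miRNA genes. Gm47305 had 16.1% of 11410 reads, 15.1% of 18411 reads and 14.0% of 11130 reads at chr12:69361280, and Gm47287 had 17.1% of 10197 reads, 14.7% of 20674 reads and 17.8% of 3857 reads at chr12:69159496. Their transcripts hold the same bases around the site, so reads could be divided between them in ways that the files do not show, and both values are uncertain. The same holds for 3 other pairs of low sites with one window in 2 genes, namely 1 pair in Tubb2a and Tubb2b and 2 pairs in Rtl8a and Rtl8b.

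The Rtl8a and Rtl8b pairs, looked at after their values were seen, lie 9 bases apart in each gene. In Rtl8a the site at chrX:53643577 went from 15.1% of 278 reads and 26.3% of 190 reads to 59.2% of 184 reads, and the one at chrX:53643568 from 12.9% of 255 reads and 17.4% of 167 reads to 23.0% of 187 reads. In Rtl8b the values were 17.1%, 28.2% and 61.9% at chrX:53670254 and 11.3%, 16.4% and 22.6% at chrX:53670245. The copies are near-identical and count as 1 observation at most. The sites of a pair had similar levels in the GV oocyte and stood far apart in the 1-cell embryo, which is why they were picked out.

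By sequence, the low sites were mostly Type I. Motifs were read on the transcript strand, with the site as the first base. CUCNA, in which N is any base, was found at 140 of the 2806 low sites with sequence (4.99%, Wilson 95% interval 4.24% to 5.86%), at 195 of 3335 sites of 20% or more (5.85%, 5.10% to 6.70%) and at 335 of all 6141 such sites (5.46%). CUCCA, which is part of CUCNA, was found at 127 and 186 of them (4.53% and 5.58%). The intervals of the 2 sets overlapped.

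Type II low sites had a lower median level in the embryo than Type I low sites. The medians were 13.8%, 16.3% and 27.7% at the 140 Type II sites and 14.1%, 18.9% and 31.9% at the 2666 Type I sites. With at least 50 reads at each stage the 1-cell medians were 23.5% at 95 Type II sites and 27.9% at 1785 Type I sites, and the median differences from the MII oocyte were 6.64 and 9.23 points. With at least 100 reads these differences were 5.41 points at 52 sites and 8.40 points at 1000 sites, with quartiles of 1.38 and 11.7 points against 2.29 and 16.9 points. The quartile ranges overlapped. At the sites of 20% or more the median difference was also smaller at Type II, 6.3 points beside 14.3 at Type I. With at least 50 reads these values were 2.59 and 12.9 points, and with at least 100 reads 0.006 and 11.8 points. The contrast was thus not particular to the low sites, and the difference between the types was not tested in either set.

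Of all 140 Type II low sites, 66 (47.1%) were called higher in the embryo and 2 (1.43%) lower, beside 51.3% and 2.45% of all sites tested. Of the 4 with the most reads, 2 were called higher and 2 lower, so these 2 falls were the only ones of Type II. Lsm14b encodes an RNA-binding protein of the stored mRNA particles of oocytes, and its site at chr2:180025236 in the CDS had 19.7% of 5244 reads, 23.9% of 4554 reads and 20.6% of 1513 reads. Ldhb, the heart-type subunit of lactate dehydrogenase, had 13.8% of 7173 reads, 17.3% of 2976 reads and 22.5% of 761 reads at chr6:142490406 in the 3′ UTR. Cd164l2 had 15.1% of 3917 reads, 19.7% of 3144 reads and 23.8% of 937 reads at chr4:133221564 in the CDS. Oas1c, of the oligoadenylate synthetase family, had 16.8% of 3206 reads, 20.0% of 2647 reads and 12.3% of 1490 reads at chr5:120808045 in the CDS. Ldhb and Cd164l2 were called higher in the embryo and Lsm14b and Oas1c lower, and after the division of reads by 5 their adjusted p lay between 0.0648 and 0.567.

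The bases after Type I low sites were rich in G, as at other Type I sites. G stood at the first to the fourth base after the site in 36.7%, 67.6%, 64.0% and 51.8% of the 2666 low sites, and in 37.5%, 69.1%, 66.1% and 55.5% of the 3140 sites of 20% or more. The mean number of G in these 4 bases was 2.2 ± 0.854 (SD over sites) and 2.28 ± 0.855. At the fourth base the Wilson intervals, 49.9% to 53.7% and 53.7% to 57.2%, met at their ends. For 0, 1, 2, 3 and 4 G the median difference between the 1-cell embryo and the MII oocyte was 11.9, 13.5, 12.7, 12.1 and 11.4 points over all Type I low sites. It was 9.34, 9.25, 9.01, 9.42 and 9.91 points with at least 50 reads at each stage, and 14.8, 9.23, 7.91, 8.75 and 7.78 points with at least 100 reads, where 16 sites had 0 G and 44 had 4. The order thus changed with the coverage minimum.

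Windows of 101 bases were folded by computer for 2774 low sites. In the 2634 of Type I, the first base after the site was paired with a base further downstream, the opening strand of a stem, in 41.5% (39.7% to 43.4%). In the 3104 Type I sites of 20% or more it was so in 47.1% (45.3% to 48.8%). The second base gave 46.3% and 50.3%, the third 46.0% and 50.6% and the fourth 42.8% and 47.0%. The share paired with a base further downstream was 24.5% and 21.4% at the ninth base after the site, and 23.2% and 20.1% at the twelfth. The share was thus the smaller one at the low sites over the first 4 bases and the larger one at the ninth and twelfth, in folds predicted for bare RNA and with no test. Pairing in either direction was 60.1% and 60.8% at the site itself, and 67.1% and 68.8% at the first base after it. The median folding energy was -30.3 and -31.0 kcal/mol.

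By position in the mRNA the low sites had shares close to those of the others. The CDS held 72.3% of them (70.6% to 73.9%), the 3′ UTR 14.3% (13.1% to 15.7%) and the 5′ UTR 11.5% (10.4% to 12.8%), beside 72.8%, 15.1% and 10.6% of the sites of 20% or more. Protein-coding genes held 98.6% of the low sites. The 1-cell median was 31.7% in the CDS, 32.0% in the 3′ UTR and 31.2% in the 5′ UTR. Of the low sites there 53.0%, 45.5% and 49.7% were called higher, beside 51.7%, 52.8% and 51% of the sites of 20% or more. With at least 100 reads at each stage the shares of the low sites were 56.5%, 51.4% and 46.3%. The order of the UTRs thus changed with the coverage minimum, and no difference between regions was tested.

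In 43 genes of oocytes and of maternal effect, 18 genes held 23 low sites, of which 13 were called higher in the 1-cell embryo and 3 lower, where 51.3% and 2.45% of all sites tested were. Their median difference was 6.31 points, at a median coverage of 255 reads in the embryo, where it was 12.5 points over all low sites at 73 reads. With at least 100 reads at each stage it was 6.31 points at 19 of them and 8.24 points at all 1053 low sites of that depth. The deepest was in Ooep, a member of the subcortical maternal complex, with 12.6% of 10550 reads, 16.1% of 8354 reads and 15.9% of 4013 reads at chr9:78378414. Tle6, of the same complex, had 12.0% of 11543 reads, 15.5% of 6338 reads and 37.7% of 1247 reads at chr10:81594470, with an adjusted p of 8.97e-62. Zar1, which binds maternal mRNA, had 14.8% of 10251 reads, 20.7% of 8371 reads and 27.0% of 3055 reads at chr5:72580729. Of these Ooep was flat in the last step, at an adjusted p of 0.878, and both others rose.

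In 67 genes of the cell cycle and meiosis, 17 genes held 23 low sites, of which 15 were called higher and 0 lower, where 51.3% and 2.45% of all sites were called. Bub1b, a kinase of the spindle checkpoint, had 17.9% of 3088 reads, 19.7% of 2329 reads and 36.6% of 183 reads at chr2:118623137. Plk1, a kinase of mitosis and meiosis, had 16.9% of 1654 reads, 27.0% of 1615 reads and 42.9% of 587 reads at chr7:122159610. Mcm5, a subunit of the replicative helicase, had 10.1% of 1019 reads, 12.7% of 995 reads and 24.8% of 363 reads at chr8:75110103. All 3 were called higher, with differences of 16.9, 15.9 and 12.1 points. With reads divided by 5 Plk1 alone kept an adjusted p under 0.05 by Fisher's exact test, at 0.0389. Bub1b then had 0.199 and Mcm5 0.156.

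In 72 genes of chromatin modifiers and remodelers, 24 genes held 47 low sites, of which 24 were called higher and 1 lower, beside 51.3% and 2.45% of all sites, so the share of rises was near that of all sites. The 1 lower was in Dnmt1, the maintenance DNA methyltransferase, with 18.3% of 6190 reads, 24.8% of 1759 reads and 16.6% of 193 reads at chr9:20909236 and an adjusted p of 0.0211. Kdm2b, a histone demethylase, held 4 low sites, all called higher. The deepest of these had 12.3% of 2668 reads, 17.1% of 2563 reads and 26.5% of 298 reads at chr5:122882153, and the next had 13.6% of 2270 reads, 16.0% of 2497 reads and 28.7% of 551 reads at chr5:122888599. With reads divided by 5 their adjusted p by Fisher's exact test were 0.312 and 0.0402.

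In 74 genes of translation and mRNA decay, 22 genes held 32 low sites, of which 18 were called higher and 2 lower, beside 51.3% and 2.45% of all sites tested. Eef2, the elongation factor that moves the ribosome along, had 12.4% of 1939 reads, 11.9% of 2157 reads and 39.9% of 316 reads at chr10:81181306, with an adjusted p of 2.71e-28. Lsm14b had, beside its Type II site, one of Type I in the 5′ UTR at chr2:180025126 with 18.5% of 2410 reads, 20.9% of 2131 reads and 22.2% of 832 reads. Eef2 rose by 28.0 points, and that Lsm14b site did not pass the test, at an adjusted p of 0.524.

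In 56 genes of ubiquitin ligases and the proteasome, 17 genes held 29 low sites, of which 20 were called higher and 1, the Smurf1 site above, lower, beside 51.3% and 2.45% of all sites tested. Rnf114, a ubiquitin ligase of oocytes, held 5. The deepest had 14.8% of 4258 reads, 19.5% of 4016 reads and 20.0% of 1654 reads at chr2:167507131, and the next had 15.4% of 2887 reads, 21.4% of 2412 reads and 27.5% of 1188 reads at chr2:167515606. Ddb1, an adaptor of cullin ligases, had 11.9% of 1841 reads, 16.4% of 1543 reads and 36.8% of 351 reads at chr19:10610777. The first Rnf114 site did not pass the test, at an adjusted p of 0.79, and both others were called higher. With reads divided by 5 the adjusted p by Fisher's exact test was 0.343 at the second Rnf114 site and 0.00984 at Ddb1.

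Among 20 genes that write, read or oxidize m5C, only Tet3 and Srsf2, a splicing factor, held low sites. Of their 8 low sites 3 were called higher and 0 lower, beside 51.3% and 2.45% of all sites tested. All 3 were in Tet3, the third deepest of whose sites had 10.5% of 1500 reads, 15.8% of 1582 reads and 22.8% of 303 reads at chr6:83403346. None of the 12 cumulus and granulosa cell markers held a site called at every stage, and 3 of them held a listed site at any stage. The lists of genes are small and share Dnmt1 and Tet3, and their shares were not tested against those of other genes. Their medians also moved with depth. With at least 100 reads at each stage the median difference was 15.9 points at 9 cell cycle sites, 8.36 at 18 chromatin sites, 2.27 at 12 translation and decay sites, 5.49 at 10 ubiquitin sites and 5.16 at 5 sites of the m5C list.

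**Figure D5:**
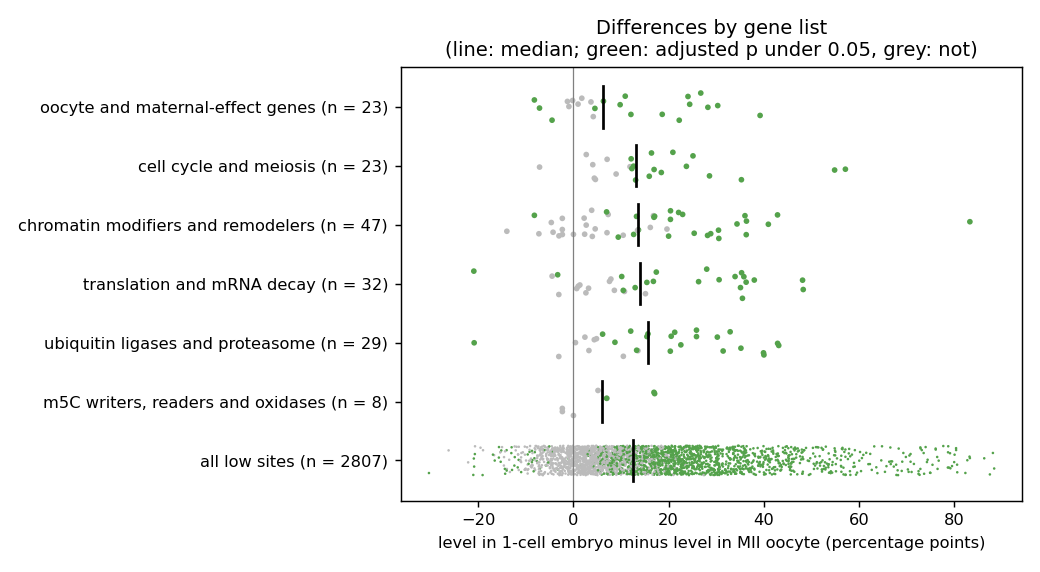
The level in the 1-cell embryo minus that in the MII oocyte, in percentage points (x axis), of each low site in 6 gene lists and of all low sites (rows), with the median of each row as a line, green where the adjusted p is under 0.05 and grey otherwise. The medians are 6.31 in the oocyte list, 13.1, 13.5, 14.1 and 15.7 in the next 4, 6.06 in the m5C list and 12.5 over all low sites, at all depths together.

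Close to the 20% limit, the 3 low sites just inside it with at least 100 reads at each stage were in Lamb1, Socs7 and H3f3a, at GV levels of 19.98%, 19.97% and 19.97%. Their levels were 22.6%, 28.3% and 24.7% in the MII oocyte and 26.0%, 54.3% and 26.6% in the 1-cell embryo. The 3 sites just outside, in Elmod2, Fgd1 and Strada, all had a GV level of 20%, with 39.9%, 21.2% and 25.5% in the MII oocyte and 42.0%, 25.2% and 35.1% in the 1-cell embryo. The values on either side of the limit overlapped at both later stages.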

How the data were processed

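RNA bisulfite sequencing lists of GV oocytes, MII oocytes and 1-cell embryos were used, 1 library per stage. Per the methods of the study, the authors trimmed reads with cutadapt and Trimmomatic, aligned them to the converted genome (GRCm38) with HISAT2 and to converted transcripts with Bowtie2, and kept sites that passed filters on base quality, coverage, level, unconverted reads and gene conversion. The authors deposited the coverage as a read count (C plus T), the m5C level as a fraction of unconverted reads, and a p-value of a one-sided binomial test, which was not used here. The lists hold called sites alone. The labels name polyadenylated RNA and the methods RNA depleted of ribosomal RNA, and the hormone doses given are those of the labels. The 1-cell values describe the deposited library, whose coverage and levels differ from those in the supplement of the study at most sites that could be compared.

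Unconverted reads were taken as level times coverage, which was whole to within 2.9e-05 reads. Reads at called sites summed to 4475058, 5285011 and 2616279 in the order of the stages. Gene symbols and exons came from GENCODE release M21, which held 1969 of the 1970 identifiers, and sequence came from the RefSeq copy of GRCm38, in which all 2806 low sites on chromosomes were C. The fold of each 101-base window of spliced transcript came from RNAfold (ViennaRNA 2.7.2, 37 °C). Fisher's exact test (scipy 1.17.1) with Benjamini-Hochberg adjustment compared the MII oocyte and the 1-cell embryo, and was tested on simulated data. At the coverage minimums of 50 and 100 reads the adjustment was made again. Intervals are Wilson 95% for shares of sites and exact binomial 95% for single sites.

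The sites named were, with at least 100 reads at each stage, the 10 largest called rises, the 5 largest called falls and the 5 with the lowest highest level, the 5 sites with the most reads, the 4 genes with the most low sites, the 4 Type II sites with the most reads, 3 sites per gene list by reads and 3 on each side of the limit. The sites and lists were chosen with earlier results of these data known. Alternatives were coverage minimums, a GV limit of 15%, an upper bound of the GV interval under 20%, reads divided by 5, a difference of 10 points and CUCCA alone.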

Additional observations from a re-analysis of the deposited data

How the results depend on the processing

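With 1 library per stage, no leave-one-out was possible. No paired analysis was possible because each stage has 1 library. The number of low sites was 1053 with at least 100 reads at each stage, 1644 with a GV level under 15% and 1646 with an upper bound of the GV interval under 20%. In that order of settings the median level was 13.9%, 12.3% and 12.5% in the GV oocyte, 18.3%, 16.6% and 17% in the MII oocyte, and 26.6%, 28.8% and 28.0% in the 1-cell embryo. The sites higher in the 1-cell embryo numbered 575, 850 and 879, those lower 27, 15 and 20, those that rose at both steps 777, 1233 and 1238, and those that fell at both steps 9, 7 and 6. With at least 50 reads the medians were 18.5% (MII oocyte) and 27.7% (1-cell embryo), with 952 sites higher and 1324 rising at both steps. Fewer sites remained under each of these settings, and shares moved too. With at least 100 reads 54.6% were higher and 2.56% lower, beside 51.5% and 1.5% of all low sites. Of all sites of that depth 56.6% were higher and 3.1% lower. The counts for the GV limit of 15% and the upper bound are out of 1644 and 1646 sites. They have no share of all sites beside them. The share of low sites in the CDS was 74.1% with at least 50 reads, 76.4% with at least 100 and 75.1% with the upper bound. The 3′ UTR held 10.5% with at least 100 reads, and the 5′ UTR 9.48% with the upper bound. With reads divided by 5, 228 sites were higher and 0 lower, and 20 of the 46 named sites lost their call while the other 26 kept theirs or stayed without one. With a difference of at least 10 points, 1324 low sites were higher and 24 lower. The order of the 3 median levels was the same under each of the 4 choices of sites, and the Type II share moved by less than its interval under each alternative run. Depth limits the 1-cell values most, where 920 of the 2807 sites had under 50 reads.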
